A study of Mus musculus with 6 samples.

Results

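Prostanoid and leukotriene synthesis was followed through 10 genes listed as shared by platelets and mast cells. They were taken by name from the read count table, with gene identifiers matched to symbols in GENCODE M21: Pla2g4a, Ptgs1, Ptgs2, Tbxas1, Hpgds, Alox5, Alox5ap, Ltc4s, Alox12 and Hpgd. All 10 were found among 53801 genes, and 9 of them passed the filter on low counts that left 13631 genes to test. Hpgd did not pass.

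These enzymes turn arachidonic acid, a fatty acid held in membrane lipids, into short-lived signals. A phospholipase frees the acid, and cyclooxygenases convert it to prostaglandin H, from which terminal synthases make thromboxane, the platelet activator, or prostaglandin D, a product of mast cells. Lipoxygenases act on the same acid, and 5-lipoxygenase with its activating protein begins the route to the leukotrienes. Platelets are known for thromboxane and for 12-lipoxygenase products, and mast cells for prostaglandin D and leukotriene C.

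RNA was sequenced from mouse fetal liver cells of E12.5-13.5, of a B6J.129(Cg) strain (Fezh/J) that carries CAG-cas9*,-EGFP, Cas9 and a green fluorescent protein under the broadly active CAG promoter, at the locus Gt(ROSA)26Sor. Cells of the Arid3a-FLAG group (3 libraries) carried a doxycycline-inducible, tagged form of the transcription factor Arid3a, and the question was which genes change when it is induced. Cells of the LUC group (3 libraries) carried LUC in the same inducible form. Both groups shared a guide against Gata1 (sgGata1), the transgene miR-125b, named in the series' design as lentiviral, and doxycycline at 1 μg/mL for 48 h, so neither group lacks the guide or the microRNA. The titles call the cells Gata1s, after a shortened GATA1 protein. Nothing in the labels says that the libraries are of separate animals or cultures. The p-values therefore cover only the spread among these samples, and that spread may be technical.

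Gene counts totalled 15728150 to 17011606 in the Arid3a-FLAG libraries and 16605860 to 18249053 in the LUC libraries. The construct's own entry in the table was counted 3348, 3044 and 2758 times with Arid3a-FLAG and 0 times in each LUC library. The mouse gene Arid3a stood at 12.998 ± 0.519 CPM with Arid3a-FLAG and 13.1 ± 3.47 CPM with LUC (SD, n = 3 each), where CPM are counts per 1000000 counts of the TMM-scaled library. In principal components of log2 CPM, the first (45.3% of the variance) separated the groups and the second (24%) set LUC library 2 off from the rest. The megakaryocyte markers ranged widely, with Itga2b at 1961 to 2178 CPM with Arid3a-FLAG and 1608 to 1919 CPM with LUC, while Tubb1 averaged 1.83 CPM with Arid3a-FLAG and 1.31 CPM with LUC. Of 8 hepatocyte markers, 7 averaged under 1 CPM, and albumin had 0 to 1 counts in the Arid3a-FLAG libraries and 0 to 2 in the LUC libraries.

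Alox5, Ptgs1, Alox5ap and Pla2g4a were the most abundant of the synthesis genes in both groups, with Tbxas1 well below them. Levels of different genes were compared per length, as RPKM, the CPM divided by the gene's exon length in kilobases. Alox5 led with 126 ± 4.37 RPKM with Arid3a-FLAG and 117 ± 2.0 RPKM with LUC (SD, n = 3 each), and its mean over all 6 libraries exceeded those of 97.0% of tested genes. The corresponding shares were 95.2% for Ptgs1, 92.8% for Alox5ap, 88.2% for Pla2g4a and 65.0% for Tbxas1. Ptgs1 followed with 96.1 ± 4.16 RPKM with Arid3a-FLAG and 72.2 ± 5.57 RPKM with LUC. Alox5ap came next with 53.7 ± 3.28 RPKM with Arid3a-FLAG and 65.7 ± 9.82 RPKM with LUC. The ranges of Ptgs1 and Alox5ap over the 6 libraries overlapped, although Ptgs1 was the higher in 5 of 6 libraries. Pla2g4a, with 40.8 ± 2.94 RPKM with Arid3a-FLAG and 36.0 ± 2.43 RPKM with LUC, lay below each of these in every library. Tbxas1, with 11.6 ± 0.304 RPKM with Arid3a-FLAG and 11.3 ± 0.798 RPKM with LUC, lay below Pla2g4a in every library. Hpgds, Ltc4s and Ptgs2 formed a low group between 1.11 and 4.13 RPKM whose neighbours overlapped. Alox12 reached at most 0.441 RPKM in any library.

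**Figure D1:**
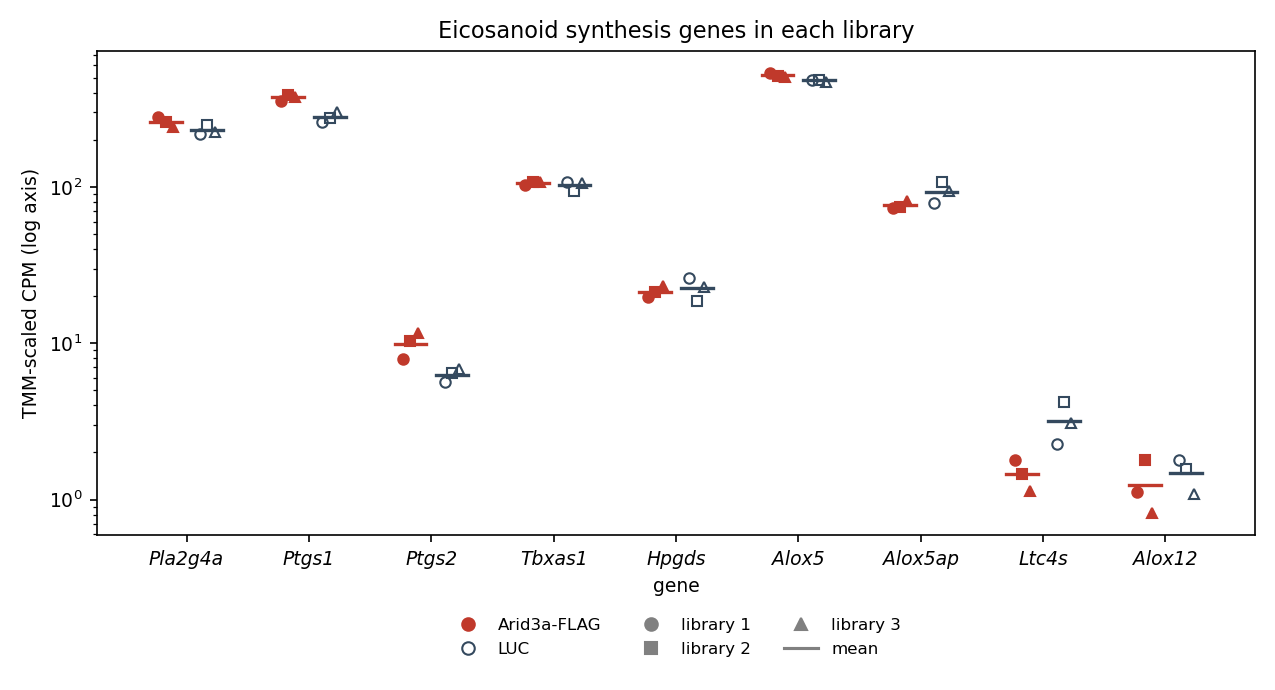
TMM-scaled CPM (log axis) of the 9 tested synthesis genes in the 3 Arid3a-FLAG libraries (filled, left) and the 3 LUC libraries (open, right), with symbol shapes for library numbers and a line at each group mean. Ptgs1, Ptgs2 and Alox5 lie higher in every Arid3a-FLAG library than in any LUC library, and Ltc4s lies lower in every one.

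With Arid3a-FLAG, the constitutive cyclooxygenase gene Ptgs1 rose 1.33-fold, and it was the only one of the 9 tested synthesis genes to pass an adjusted p of 0.05 (edgeR's quasi-likelihood test, Benjamini-Hochberg adjustment over the 13631 genes). That is 11.1% of the 9, beside 7.29% of all tested genes, 3.43% higher and 3.87% lower. The inducible cyclooxygenase gene Ptgs2 and the leukotriene C synthase gene Ltc4s had larger differences, upward and downward, that missed the threshold by little. The groups did not overlap for 4 of the 9 genes, higher with Arid3a-FLAG for Ptgs1, Ptgs2 and Alox5 and lower for Ltc4s, while 33.1% of all tested genes had groups that did not overlap (16.6% higher and 16.5% lower). The median log2 fold change was 0.04 over the 9 genes and -0.03 over all tested genes. None of the 9 fell past the threshold in edgeR. Unadjusted, p in edgeR was under 0.05 for 2 higher and 2 lower genes of the 9, beside 1592 higher and 1891 lower of all 13631. Among lower genes DESeq2 called 1 of the 9, beside 790 of all 13631, and limma-voom 0, beside 525. In these bulk samples fewer cells of a type and less RNA per cell cannot be told apart. Of the marker sums given further on, that of mast cells and basophils was lower in every Arid3a-FLAG library than in any LUC library. So were the eosinophil, lymphoid, and endothelial and stromal sums, while the erythroid sum was higher in every Arid3a-FLAG library.

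**Figure D2:**
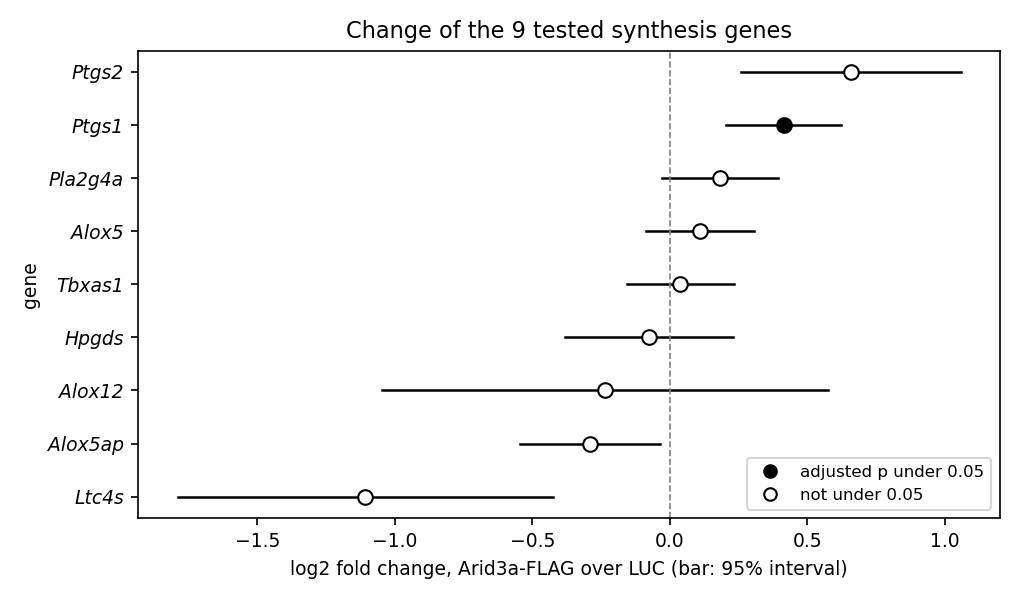
Log2 fold change (Arid3a-FLAG over LUC) of the 9 tested synthesis genes with 95% intervals, filled where the adjusted p was under 0.05. Ptgs1 is the filled point at 0.41, and Ptgs2 at 0.66, Alox5ap at -0.29 and Ltc4s at -1.11 have intervals that leave out 0 without passing the adjusted threshold.

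At the first step stands Pla2g4a (ENSMUSG00000056220, chromosome 1, 149829618 to 149961290, minus strand, mm10), the cytosolic phospholipase that frees arachidonic acid. It had 280.1, 260.4 and 243 CPM in the Arid3a-FLAG libraries and 217, 247 and 225 CPM in the LUC libraries. The groups overlapped only through Arid3a-FLAG library 3 and LUC library 2. The log2 fold change was 0.18 (edgeR adjusted p = 0.254, SE 0.10, 95% interval -0.03 to 0.39). Without LUC library 2 it was 0.25 and passed the threshold (adjusted p = 0.0343).

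Ptgs1 (ENSMUSG00000047250, chromosome 2, 36230426 to 36252272, plus strand) encodes cyclooxygenase-1, the isoform that platelets use and that low-dose aspirin blocks there. It had 357, 389 and 375 CPM in the Arid3a-FLAG libraries, against 261, 276 and 304 CPM in the LUC libraries. The lowest Arid3a-FLAG library was well above the highest LUC library. The means were 373 ± 16.2 CPM with Arid3a-FLAG and 280.3 ± 21.6 CPM with LUC, a log2 fold change of 0.41 (edgeR adjusted p = 0.0272, SE 0.09, 95% interval 0.20 to 0.62). The difference kept its direction when any 1 library was left out, from 0.38 to 0.50 on the log2 scale. It no longer passed when Arid3a-FLAG library 1 (adjusted p = 0.106), library 2 (0.161) or library 3 (0.0969) or LUC library 1 (0.0776) was left out.

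Ptgs2 (ENSMUSG00000032487, chromosome 1, 150100031 to 150108227, plus strand) encodes cyclooxygenase-2, the isoform that cells switch on when stimulated. Its counts were low, 128, 177 and 184 in the Arid3a-FLAG libraries and 98, 98 and 126 in the LUC libraries. They corresponded to 7.95, 10.3 and 11.6 CPM with Arid3a-FLAG and 5.66, 6.41 and 6.8 CPM with LUC. Every Arid3a-FLAG library was above every LUC library, though Arid3a-FLAG library 1 only narrowly. The log2 fold change was 0.66 (SE 0.18, 95% interval 0.26 to 1.06), and the adjusted p of 0.0541 in edgeR lay just outside the threshold. The call depended on the setting, with an adjusted p from 0.0082 with no filter on low counts to 0.188 without Arid3a-FLAG library 2, and DESeq2 gave 0.0179. Per length, the Ptgs1 level was 52.9, 44.6 and 38.2 times that of Ptgs2 in the Arid3a-FLAG libraries and 54.4, 50.8 and 52.7 times in the LUC libraries, so the cyclooxygenase transcripts were mostly those of Ptgs1 in both groups. Ptgs2 and Pla2g4a are neighbours on chromosome 1. The gap between them is 138.7 kb and holds 3 annotated genes, none of them protein-coding.

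The promoters of the 2 cyclooxygenase genes are shown because these genes stood higher together, and that of Ltc4s because it had the largest difference downward. Each runs from 250 bases before to 50 bases after the RefSeq start (GRCm38.p6), at chr2:36230176-36230475 on the plus strand for Ptgs1, chr1:150099781-150100080 on the plus strand for Ptgs2 and chr11:50238483-50238782 on the minus strand for Ltc4s, whose RefSeq start lies inside the GENCODE gene given below, so that part of its window is gene body by GENCODE. Capitals mark matches, on either strand, to 5 short motifs that were searched: GATAA (GATA factors), GGAAG (ETS factors), ATTAAA and ATCAAA (Arid3a) and TGTGGT (RUNX factors).
Ptgs1: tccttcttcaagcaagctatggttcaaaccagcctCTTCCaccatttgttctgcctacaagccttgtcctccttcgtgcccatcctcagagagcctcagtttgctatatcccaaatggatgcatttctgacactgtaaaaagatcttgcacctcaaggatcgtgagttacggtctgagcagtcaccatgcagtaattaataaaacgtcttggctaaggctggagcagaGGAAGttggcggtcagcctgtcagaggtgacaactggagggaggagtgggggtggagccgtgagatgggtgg
Ptgs2: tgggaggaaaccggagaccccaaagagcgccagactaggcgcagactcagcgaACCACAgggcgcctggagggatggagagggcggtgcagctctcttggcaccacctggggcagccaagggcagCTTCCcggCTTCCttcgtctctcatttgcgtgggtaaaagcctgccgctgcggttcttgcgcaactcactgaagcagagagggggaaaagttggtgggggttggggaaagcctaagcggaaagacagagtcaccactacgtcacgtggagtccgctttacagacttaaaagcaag
Ltc4s: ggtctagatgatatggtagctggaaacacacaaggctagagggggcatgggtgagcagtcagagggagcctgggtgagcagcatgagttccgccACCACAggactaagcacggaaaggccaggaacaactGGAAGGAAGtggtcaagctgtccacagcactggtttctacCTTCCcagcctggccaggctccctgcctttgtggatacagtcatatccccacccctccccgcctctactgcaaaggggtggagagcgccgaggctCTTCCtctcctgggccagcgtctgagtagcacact
In these windows GGAAG matched 2 times for Ptgs1, 2 times for Ptgs2 and 4 times for Ltc4s, where 2 of the matches overlap by a single base. TGTGGT had 1 match each for Ptgs2 and Ltc4s. Of all 32851 RefSeq promoters of this length, 71.4% held GGAAG, 16.8% held TGTGGT, 25.4% held GATAA and 22.9% held ATTAAA or ATCAAA. RefSeq listed 10 promoters for 9 of the 10 genes, and GATAA matched in that of Alox5 and in 1 of the 2 of Pla2g4a. ATTAAA and ATCAAA matched in none of the 10 windows, which says only that these letters are not there.

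For the terminal prostanoid synthases the groups overlapped and neither gene passed. Tbxas1 (ENSMUSG00000029925, chromosome 6, 38875404 to 39084585, plus strand), thromboxane synthase, had 102, 107 and 108 CPM with Arid3a-FLAG and 108, 94.5 and 106 CPM with LUC. Its groups overlapped fully, with a log2 fold change of 0.04 (edgeR adjusted p = 0.817, 95% interval -0.16 to 0.23). Hpgds (ENSMUSG00000029919, chromosome 6, 65117293 to 65144908, minus strand), the haematopoietic prostaglandin D synthase, had 19.7, 21.1 and 23.3 CPM with Arid3a-FLAG and 26.0, 18.7 and 22.8 CPM with LUC. LUC libraries 1 and 2 were its highest and lowest values, and the log2 fold change was -0.08 (adjusted p = 0.767, 95% interval -0.38 to 0.23).

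On the leukotriene side, the genes of the early steps were abundant and did not pass. Alox5 (ENSMUSG00000025701, chromosome 6, 116410077 to 116461178, minus strand) encodes 5-lipoxygenase. It had 537, 514 and 502 CPM with Arid3a-FLAG and 484, 485 and 471 CPM with LUC. The groups did not overlap but lay close together, with a log2 fold change of 0.11 (edgeR adjusted p = 0.470, 95% interval -0.09 to 0.31). Alox5ap (ENSMUSG00000060063, chromosome 5, 149264767 to 149288153, plus strand) encodes the membrane protein that presents arachidonic acid to 5-lipoxygenase. It had 72.9, 74.3 and 81.6 CPM with Arid3a-FLAG and 79.2, 107 and 93.7 CPM with LUC, overlapping only through LUC library 1. Its log2 fold change of -0.29 (SE 0.11, 95% interval -0.54 to -0.04) did not pass (adjusted p = 0.146), and without LUC library 2 it was -0.17. Per length, Alox5ap stood at 0.427 ± 0.0395 of Alox5 with Arid3a-FLAG and at 0.562 ± 0.0835 with LUC, with the highest Arid3a-FLAG library just under the lowest LUC library. No test was made of this ratio.

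Ltc4s (ENSMUSG00000020377, chromosome 11, 50236461 to 50238616, minus strand) encodes the enzyme that joins glutathione to leukotriene A to give leukotriene C. It rested on few reads, 29, 25 and 18 counts in the Arid3a-FLAG libraries and 39, 64 and 57 counts in the LUC libraries. These gave 1.8, 1.45 and 1.13 CPM with Arid3a-FLAG and 2.25, 4.19 and 3.08 CPM with LUC. Every Arid3a-FLAG library was below every LUC library, and LUC library 2 was the highest. The log2 fold change of -1.11 (SE 0.31, 95% interval -1.79 to -0.43) had an adjusted p of 0.0556 in edgeR. DESeq2 gave 0.0282, and the difference was -0.85 without LUC library 2 (adjusted p = 0.0807). Ltc4s shares 268 of 1014 exon bases with the antisense gene Gm26542, which had 9 to 17 counts with Arid3a-FLAG and 14 to 22 with LUC, and reads of the overlapping genes cannot be told apart without a stated strand. Shorter overlaps with opposite-strand genes affect Alox5ap (189 bases), Ptgs1 (148) and Tbxas1 (144), whose partners had at most 62 counts in any library.

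Alox12 had few reads and Hpgd almost none. Alox12 (ENSMUSG00000000320, chromosome 11, 70241457 to 70255353, minus strand), the platelet-type 12-lipoxygenase, had 18, 31 and 13 counts with Arid3a-FLAG and 31, 24 and 20 with LUC. The groups overlapped and the interval was wide, with a log2 fold change of -0.24 (edgeR adjusted p = 0.726, 95% interval -1.05 to 0.58). Hpgd (ENSMUSG00000031613, chromosome 8, 56294585 to 56321043, plus strand) encodes the dehydrogenase that inactivates prostaglandins. It had 1 count over the Arid3a-FLAG libraries, in library 3, and 2 counts over the LUC libraries, both in library 2. Both sums are under a floor of 3 counts per group, 0.0609 CPM with Arid3a-FLAG and 0.0587 CPM with LUC, so no fold was computed.

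The tested genes did not share 1 profile over the libraries. Among the Arid3a-FLAG libraries Ptgs2, Tbxas1, Alox5ap and Hpgds were lowest in library 1 and highest in library 3. Alox5, Ltc4s and Pla2g4a ran the other way round. Among the LUC libraries, library 2 held the highest value of Alox5ap, Ltc4s, Pla2g4a and, only just, Alox5, and the lowest of Tbxas1 and Hpgds. The coefficient of variation was lowest for Tbxas1 with Arid3a-FLAG (2.62%) and for Alox5 with LUC (1.71%). It was highest for Alox12 with Arid3a-FLAG (40.5%) and for Ltc4s with LUC (30.6%). Among 10290 other genes of at least 5 CPM, those whose centred log2 CPM profile lay nearest that of Ptgs1 over the 6 libraries were Tlk1 (root mean square difference 0.0317), a kinase of chromatin assembly, Atp2b1 (0.0331), a plasma membrane calcium pump, and Exoc8 (0.0351), a subunit of the exocyst.

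**Figure D3:**
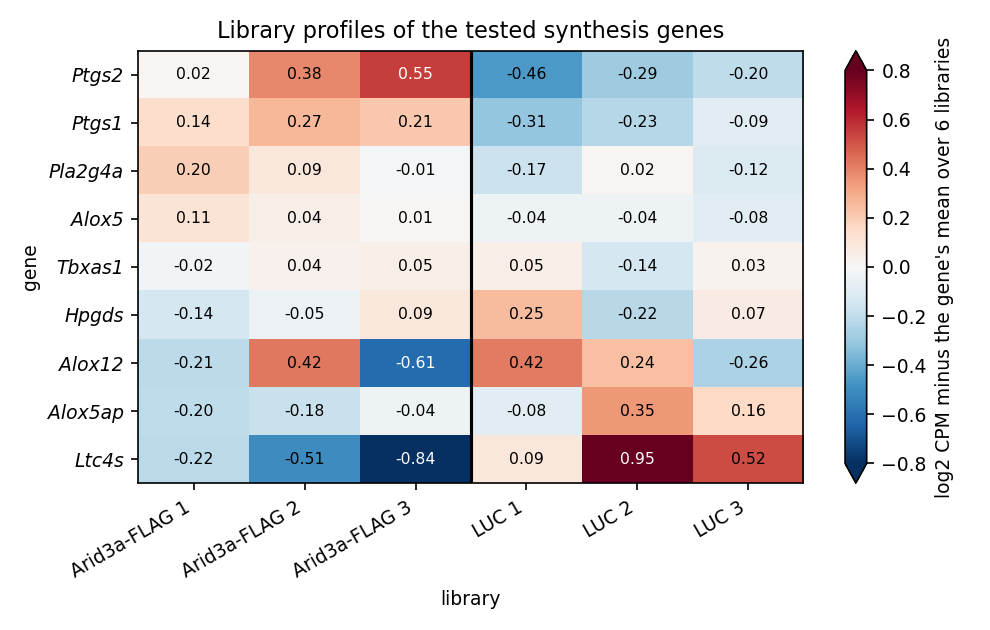
Log2 CPM of each tested synthesis gene minus its own mean over the 6 libraries, Arid3a-FLAG libraries left of the black line and LUC libraries right of it, genes ordered by fold change. Ptgs1 and Ptgs2 are above their means in all Arid3a-FLAG libraries and below in all LUC libraries, Ltc4s the reverse, and LUC library 2 gives the extreme values of Alox5ap (0.35) and Ltc4s (0.95).

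Around these enzymes, 97 further genes of eicosanoid metabolism were listed by step. Of these 96 were in the annotation and 58 were tested, of which 4 rose, 7 fell and 47 did not pass. That is 19.0% called, beside 7.29% of all tested genes. The median log2 fold change was -0.12. These counts moved with single libraries: none rose without LUC library 1 or any 1 of the Arid3a-FLAG libraries, and 8 rose without LUC library 2. With Arid3a-FLAG library 1 or 2 left out only 1 gene fell, with Arid3a-FLAG library 3 left out 4, and with LUC library 1 left out 3.

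Among receptors, 1 of 9 tested genes rose, 1 fell and 7 did not pass. Ltb4r1, the high-affinity leukotriene B receptor, fell to 5.03, 3.25 and 6.59 CPM with Arid3a-FLAG, against 16, 14.1 and 14.1 CPM with LUC. Every Arid3a-FLAG library had less than any LUC library by a wide margin, and the log2 fold change was -1.58 (SE 0.22, adjusted p = 0.00296 in edgeR). It was called under all 14 alternatives, with an adjusted p of at most 0.0225. Ptger3, a prostaglandin E receptor present on platelets, rose (log2 fold change 0.45, adjusted p = 0.0269 and SE 0.10), with 177, 161 and 151 CPM in the Arid3a-FLAG libraries and 112, 133 and 113 CPM in the LUC libraries. The thromboxane receptor gene Tbxa2r was low, at 2.74 ± 0.359 CPM with Arid3a-FLAG and 1.88 ± 0.317 CPM with LUC (adjusted p = 0.207). The leukotriene receptor gene Cysltr1 had 2.05 ± 0.189 CPM with Arid3a-FLAG and 3.46 ± 0.464 CPM with LUC (adjusted p = 0.0766). Ptger4 (log2 fold change -0.01, adjusted p = 0.970) and Ptgir (-0.12, adjusted p = 0.683), receptors of prostaglandin E and prostacyclin, did not pass. Ptgdr had 0 counts in every library, Ptgdr2 had 0 to 3 counts with Arid3a-FLAG and 0 to 4 with LUC, and Cysltr2 had 8 to 13 counts with Arid3a-FLAG and 6 to 10 with LUC. These 3 were not tested.

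All 10 tested genes of the other prostanoid enzymes had log2 fold changes below 0, where 7454 of all 13631 tested genes did. All 10 stayed below 0 with RLE factors, with upper quartile factors and without the 20 most abundant genes. Such settings move all genes nearly alike, so they do not show how far the directions rest on single libraries. Leaving out single libraries was not tried for this count. Ptges2, the nearest to 0, had 24.3, 25.7 and 22.7 CPM with Arid3a-FLAG and 23.4, 29.6 and 22.9 CPM with LUC. The median of the 10 genes was -0.35, but only Cbr3 and Fam213b fell past the threshold. Cbr3, a carbonyl reductase, had 2.72 ± 0.300 CPM with Arid3a-FLAG and 5.76 ± 1.42 CPM with LUC (log2 fold change -1.08, adjusted p = 0.0225 in edgeR). Fam213b, a prostamide and prostaglandin F synthase, had 1.17 ± 0.364 CPM with Arid3a-FLAG and 2.67 ± 0.523 CPM with LUC (-1.19, adjusted p = 0.0473). The prostaglandin E synthase genes Ptges2 (-0.06, adjusted p = 0.810) and Ptges3 (-0.20, adjusted p = 0.294) did not pass. Neither did the prostaglandin D synthase gene Ptgds (-0.43, adjusted p = 0.566) or the prostacyclin synthase gene Ptgis (-1.53, adjusted p = 0.137), both under 1 CPM on average. Ptges, with 2 to 5 counts with Arid3a-FLAG and 1 to 8 with LUC, was not tested.

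Of 4 tested leukotriene genes beyond those described, Ggt5 rose, Mgst3 fell and 2 did not pass. Ggt5, which trims glutamate from leukotriene C, had 6.23 ± 0.761 CPM with Arid3a-FLAG and 2.61 ± 1.02 CPM with LUC (1.23 on the log2 scale, SE 0.27, adjusted p = 0.0245 in edgeR). Mgst3, a microsomal glutathione transferase of the same protein family as Ltc4s and Alox5ap, had 7.30 ± 1.13 CPM with Arid3a-FLAG and 13.2 ± 3.33 CPM with LUC (-0.86, SE 0.20, adjusted p = 0.0307). Lta4h, the hydrolase that makes leukotriene B, had 154 ± 3.79 CPM with Arid3a-FLAG and 174 ± 16.3 CPM with LUC (adjusted p = 0.256). Mgst2, with 2 to 8 counts with Arid3a-FLAG and 4 to 16 with LUC, was not tested. None of the 5 other lipoxygenase genes passed the filter on low counts, and 3 of them, among them Alox8 and Alox12e, had 0 counts in every library. Alox15 had 9, 1 and 3 counts with Arid3a-FLAG and 0, 0 and 1 with LUC.

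In transport and breakdown 2 of 10 tested genes rose and none fell in edgeR (1 was lower at an unadjusted p under 0.05). Abcc4, which exports prostanoids and is found in platelet granules, had 44.3 ± 3.22 CPM with Arid3a-FLAG and 33.9 ± 0.406 CPM with LUC (0.39 on the log2 scale, adjusted p = 0.0368). The leukotriene C exporter gene Abcc1 had 200.1 ± 12.52 CPM with Arid3a-FLAG and 199.6 ± 44.1 CPM with LUC (adjusted p = 0.992), and the prostaglandin transporter gene Slco2a1 had 0 counts in every library.

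In the release and reacylation lists none rose and 3 of 25 tested genes fell, Pla2g12a, Pla2g7 and Lpcat2. A single gene of these lists was higher at an unadjusted p under 0.05. Pla2g12a, a secreted phospholipase, had 42.7 ± 0.901 CPM with Arid3a-FLAG and 56.9 ± 6.95 CPM with LUC (-0.41 on the log2 scale, adjusted p = 0.0421 in edgeR). The other two act on platelet-activating factor. Pla2g7, which breaks it down, had 6, 3 and 4 counts with Arid3a-FLAG and 15, 24 and 35 with LUC (-2.42, adjusted p = 0.0141). Lpcat2, which makes it, had 14.5, 14.3 and 24.4 CPM with Arid3a-FLAG and 32.1, 28.97 and 36.1 CPM with LUC (-0.87, adjusted p = 0.0249). Both overlap antisense genes, of at most 6 counts in any library. Pla2g6 (-0.13, adjusted p = 0.625), Acsl4 (-0.03, adjusted p = 0.866), Lpcat3 (0.09, adjusted p = 0.515) and Mboat7 (0.02, adjusted p = 0.896), which handle fatty acids of membrane lipids, did not pass. Apart from Ltb4r1, each of the 11 called genes lost its call in at least 2 of the 6 fits that left out 1 library.

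**Figure D4:**
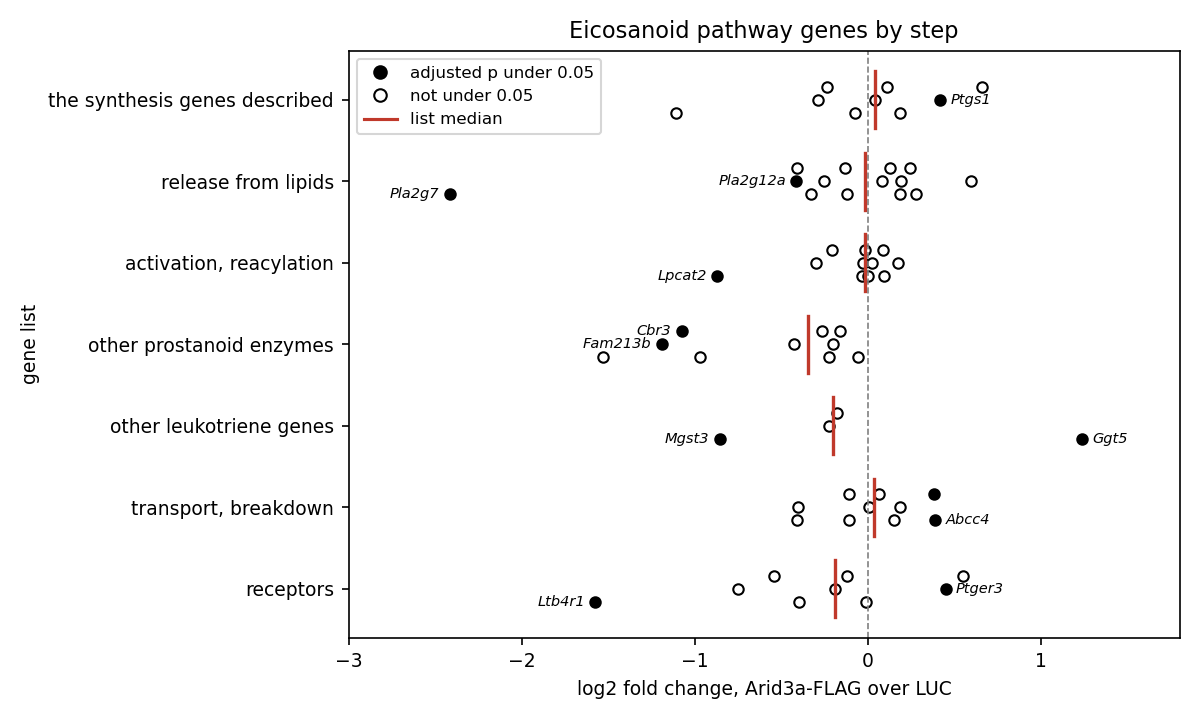
Log2 fold change (Arid3a-FLAG over LUC) of the 9 tested synthesis genes and of 58 further tested eicosanoid genes by step, each point a gene, filled where the adjusted p was under 0.05 and named where the text describes such a gene, with a red line at each list's median. Points scatter on both sides of 0 in most steps, while all 10 other prostanoid enzymes lie below 0.

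Markers of several cell types also differed between the groups. The summed level of 17 mast cell and basophil markers ran from 2216 to 3049 CPM with Arid3a-FLAG and from 3138 to 3721 CPM with LUC, with none at 0 in all libraries. The largest part of this sum was Gata2, at 1290 CPM on average with Arid3a-FLAG and 1202 CPM with LUC. Of 15 tested markers 3, Ms4a2, Fcer1a and Mcpt8, fell and none rose (none was higher at an unadjusted p under 0.05). The log2 fold change was below 0 for 11 of the 15 and above 0 for 4, Kit (0.07), Hdc (0.01), Prss34 (0.18) and Gata2 (0.10). The groups overlapped for 9 of the 15, among them Cma1, Mcpt1 and Mcpt2. The tryptase genes Tpsab1 and Tpsb2 had at most 2 counts in any library. The summed level of 16 megakaryocyte and platelet markers overlapped, from 7304 to 7846 CPM with Arid3a-FLAG and from 6758 to 8504 CPM with LUC, with none at 0. Most of that sum was Pf4, at 3143 CPM on average with Arid3a-FLAG and 3938 CPM with LUC, and Itga2b, at 2068 and 1778 CPM. Of the 16, 6 rose (Itgb3, Gp1bb, Gp5, Gp9, Clec1b and Thbs1) and 1 fell (Ppbp), 43.8% called beside 7.29% of all tested genes. The log2 fold change was above 0 for 13 and below 0 for 3, with a median of 0.52. The groups did not overlap for 10 higher and 2 lower markers. Of 9 eosinophil markers, 3 were at 0 in all libraries and 8 averaged under 1 CPM, with sums of 6.02 to 8.79 CPM with Arid3a-FLAG and 12.04 to 14.4 CPM with LUC. The 12 neutrophil markers summed to 12.4 to 26.4 CPM with Arid3a-FLAG and 25.8 to 29.4 CPM with LUC, with 3 of 4 tested falling and 8 of the 12 averaging under 1 CPM. The 14 monocyte and macrophage markers summed to 33.2 to 43.3 CPM with Arid3a-FLAG and 30.6 to 34.5 CPM with LUC, with 2 at 0 in all libraries, and of 6 tested 1 rose and 1 fell. Outside these lineages, 13 erythroid markers summed to 303 to 401 CPM with Arid3a-FLAG and 214.5 to 276 CPM with LUC, with 1 at 0 in all libraries, and of 11 tested 4 rose and 1 fell. The 10 endothelial and stromal markers summed to 294 to 427 CPM with Arid3a-FLAG and 501 to 606 CPM with LUC. Most of that sum was Vim, at 234 CPM on average with Arid3a-FLAG and 418 CPM with LUC, and Pecam1, at 94.7 and 113 CPM. Of the 10, 2 were at 0 in all libraries, Cdh5 and Col3a1, and of 7 tested 2 rose (Kdr and Sparc) and 2 fell (Pdgfrb and Vim). The 11 lymphoid markers summed to 7.08 to 8.04 CPM with Arid3a-FLAG and 29.96 to 41.9 CPM with LUC, with 2 at 0, and all 3 tested fell. The 8 hepatocyte markers summed to 16.3 to 20.4 CPM with Arid3a-FLAG and 20.3 to 27.2 CPM with LUC, with 3 at 0, and the 1 tested did not pass. The part of these markers in the values of Ptgs1, Ptgs2, Ltc4s and Ltb4r1 was not tested.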

How the data were processed

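RNA of 6 samples was measured by sequencing. The authors deposited whole-number read counts for each gene, not normalized. Named in the submitters' processing notes are HISAT2 2.0.5, fastp, featureCounts and the build mm10. Their settings, the annotation release and use of read strand were not stated. Columns were matched to samples by their descriptions, and gene identifiers to GENCODE M21 (GRCm38, also called mm10), with 95 unmatched. The construct's entry, the only one without an Ensembl identifier, was left out of library sizes and tests.

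The test was that of edgeR 4.0.16 in R 4.3.3 (filterByExpr defaults, TMM factors, glmQLFit and glmQLFTest, group as the only term, two-sided), with Benjamini-Hochberg adjustment over 13631 genes and a threshold of 0.05. The steps were tested on simulated data. CPM and RPKM used TMM-scaled library sizes and exon-union lengths. Standard errors are the log2 fold change over the square root of F, and intervals are at 95%. Floors cover counting error only. Alternatives were DESeq2 1.42.0, limma-voom (limma 3.58.1), upper quartile or RLE factors, no filter on low counts, a minimum of 5 CPM in 3 libraries, a replicate block, the 20 most abundant genes left out, and each library left out.

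The synthesis genes and lists were chosen with earlier results of these data known. The rule for named genes took all 10 synthesis genes, every further pathway gene past the threshold (1 is not reported here), a fixed set that shares a step with them, and the 3 genes nearest in profile to each called synthesis gene. The motifs and lists came from general knowledge, and promoters from RefSeq (GRCm38.p6).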

Additional observations from a re-analysis of the deposited data

How the results depend on the processing

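Over all genes, 467 were higher and 527 lower. With no filter on low counts these became 869 and 1076, DESeq2 gave 771 higher, and with 1 library left out they ran from 115 to 1191 and from 118 to 1095. Of the synthesis genes 1 was higher and 0 lower. There were 2 higher and 1 lower with no filter or with DESeq2, 2 higher with the replicate block or without the 20 most abundant genes, and 0 to 3 higher and 0 to 0 lower with 1 library left out. Of the other pathway genes, 4 were higher and 7 lower. The block left 2 higher, a minimum of 5 CPM in 3 libraries left 4 lower, and leaving out 1 library gave 0 to 8 higher and 1 to 9 lower.

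Without LUC library 2 the log2 fold change of Tbxas1 reversed to -0.0049 and without LUC library 1 that of Hpgds to 0.0606, neither a called gene. Over the 6 fits that left out 1 library they ran from -0.0049 to 0.0952 and from -0.1769 to 0.0606. The labels do not say whether the replicate numbers pair the samples, and the values showed no clear pairing. Deviations of same-numbered libraries from their group means correlated at -0.103, -0.115 and 0.125, and not every library matched best with its own number. With 3 libraries per group, such correlations cannot settle whether the samples were paired. With the number as a block, edgeR called 410 genes higher and 530 lower, with Ptgs1 at 0.42 (adjusted p = 0.0480) and Ptgs2 at 0.65 (0.0495), and Pla2g12a, Fam213b and Abcc4 no longer passed, while no other call on a synthesis or pathway gene named here changed. The causes of these changes were not tested. Ltc4s and Alox12, under 100 counts in every library, and Hpgd, with 0 to 2, are limited by depth.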
